A study of Mus musculus with 6 samples.

Results

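The genes described here encode the transforming growth factor beta (TGF-beta), bone morphogenetic protein (BMP) and activin signalling pathway. They are 53 named genes for secreted ligands, the proteins that hold or block them, their receptors, the Smad proteins and close targets, out of 54752 genes listed in each table. Each was found by matching its gene identifier, without the version suffix, to GENCODE M21 on GRCm38, and none of the 53 symbols had another identifier. The RNA came from 3T3-L1, a fibroblast line derived from mouse embryos that hormone treatment can turn into fat cells. The labels name 3 libraries of preadipocytes and 3 of adipocytes, each numbered 1 to 3, with strain C57BL/6J, tissue embryo and no treatment given for all 6. The medium entry is shared by both groups and holds the unexplained abbreviation DMI, and the source name reads Adipocyte throughout, and the groups were taken from titles and cell type entries. No source used here gives the day of harvest. Separate cultures are not stated for the libraries of a group, so each p-value reflects the spread between these libraries alone, which may be technical.

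Ligands of this family bind pairs of type I and type II receptor kinases on the cell surface. TGF-beta and activin receptors phosphorylate Smad2 and Smad3, whereas BMP receptors phosphorylate Smad1, Smad5 and Smad9, and both sets enter the nucleus with Smad4. In cells of the fat lineage, TGF-beta is known as an inhibitor of fat cell formation and BMPs as factors that commit progenitors to it.

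Libraries held 22496486 to 26314076 expected counts. Values below are CPM, counts brought to a common library total, with library sizes scaled by the trimmed mean of M-values (TMM), and levels of different genes are compared only as TPM, a transcript abundance corrected for length and brought to a common total. All 8 adipocyte markers rose and all 8 preadipocyte and fibroblast markers fell. The latter summed to 33983 to 38437 CPM in preadipocyte and 3565 to 4395 CPM in adipocyte libraries. Of 6 smooth muscle and pericyte markers, 3 (Mcam, Des and Myh11) rose, and the list summed to 2.47 to 2.97 CPM in preadipocytes and 265.0 to 323.9 CPM in adipocytes. Myh11, a defining gene of smooth muscle, rose from 0.486 ± 0.092 to 31.7 ± 2.62 CPM (SD, n = 3). The markers Cnn1, Rgs5 and Cspg4 had 9, 4 and 14 counts in preadipocytes and 9, 0 and 14 in adipocytes. The smooth muscle actin gene Acta2, which is not on this list, fell from 178 ± 25.6 to 5.25 ± 1.21 CPM (SD, n = 3). Macrophage, endothelial, skeletal muscle, bone and epithelial lists summed to at most 2.18 CPM in every library. The part of any of these in the results was not tested. In bulk RNA, fewer cells that express a gene and less of its RNA per cell cannot be told apart.

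The comparison asked which genes of the pathway differ between preadipocytes and adipocytes. Most of the pathway was lower in adipocytes, led by the BMP antagonist Grem1, the activin antagonist Fst and the activin subunit Inhba. A smaller group was higher, led by the ligand Gdf5 and the antagonist Nog, neither of which had a count in preadipocytes. Of the 53 genes, 47 passed the low-count filter. The quasi-likelihood test of edgeR was used, with p-values adjusted by Benjamini and Hochberg's method over all tested genes and a threshold of 0.05. It called 43 of the 47, where 73.5% of all 14726 tested genes were called. Of the 47, 28 (59.6%) were lower in adipocytes, where 37.9% of all tested genes were lower. Another 15 (31.9%) were higher, where 35.7% of all tested genes were higher, and 4 were not past the threshold. Falls of at least 2-fold were found for 24 of the 47 (51.1%, against 21.8% of all tested genes), and rises of at least 2-fold for 6 (12.8%, against 19.3%). Falls of at least 10-fold were found for 8 of the 47 (4.94% of all tested genes) and rises of at least 10-fold for 2, Gdf5 and Nog (4.49% of all tested genes). The groups did not overlap for 43 of the 47 (91.5%, against 76.5%). The median log2 fold change was -1.10, beside -0.060 over all tested genes. Without adipocyte library 2, which held more ribosomal RNA than the others, 26 were lower and 15 higher. Bmp4, Gdf5, Gdf15, Nog and Eng reached the filter level of 0.414 CPM only in the group where they were high, so their difference was bound to be large.

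The balance depends on how libraries are scaled. With total counts the median gene shifted by -0.33 (log2) and 10 of the 47 were higher and 30 lower. With limma on log2(TPM + 1), where unit and test differ as well, it shifted by -0.48 and 8 were higher and 31 lower. All 6 rises of at least 2-fold and the rises of Acvr1b and Smurf1 were called under each of the 15 alternatives run, as were 26 of the 28 falls. The other 7 rises, of Tgfb1, Ltbp3, Inhbb, Chrdl1, Smad2, Skil and Smurf2, lost their call with total counts, upper-quartile factors or limma on log2(TPM + 1), and the exceptions among the falls were Tgfbr2 and Smad5.

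**Figure D1:**
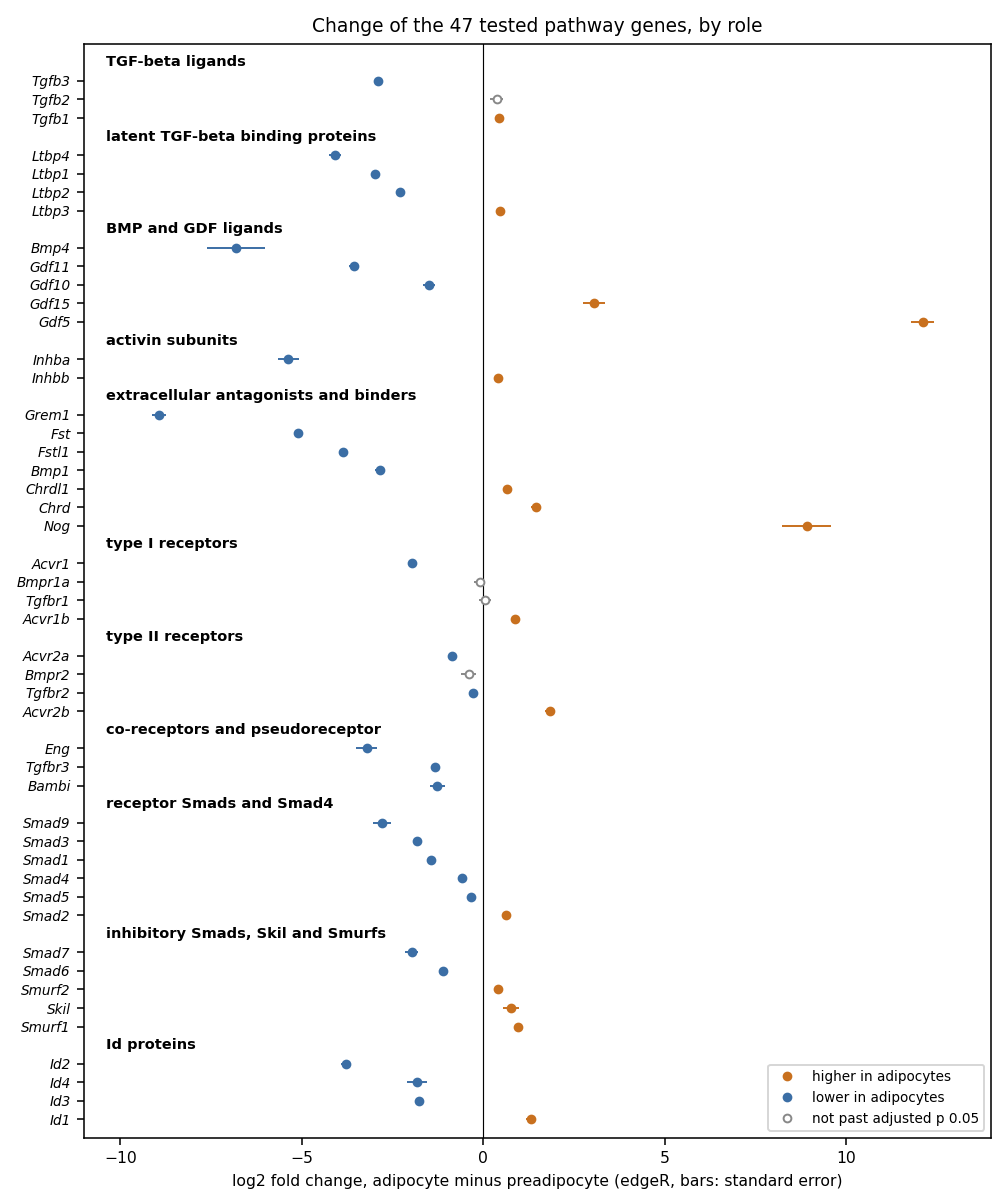
Log2 fold change (adipocyte minus preadipocyte, x axis) of each of the 47 tested genes, grouped by role, with the standard error as a bar. Orange points are higher, blue points lower and open points not past the threshold; Grem1 is farthest to the left and Gdf5 farthest to the right, and the fitted values of Gdf5, Nog and Bmp4 depend on the prior count because 1 of their groups is at 0.

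TGF-beta itself is made from 3 genes, and their products are stored in the matrix in a latent form. Tgfb3 (ENSMUSG00000021253.7, chromosome 12, 86056745 to 86079041, GRCm38, minus strand) fell, while Tgfb1 (ENSMUSG00000002603.15, chromosome 7, 25687002 to 25705077, plus strand) was slightly higher. Tgfb3 measured 78.2, 75.5 and 74.2 CPM in preadipocyte libraries 1 to 3 and 10.8, 11.2 and 8.48 CPM in adipocyte libraries 1 to 3. Every adipocyte library was far below every preadipocyte library, and the log2 fold change was -2.90 (SE 0.11, edgeR adjusted p = 4.17e-08). Tgfb1 measured 21.8, 22.9 and 22.8 CPM against 30.0, 31.6 and 29.8 CPM, a log2 fold change of 0.44 (SE 0.076, edgeR adjusted p = 0.00071). That rise was lost with total counts (0.11, edgeR adjusted p = 0.22) and turned to -0.088 with limma on log2(TPM + 1), where the adjusted p was 0.37. Its TPM level was 21.4 ± 1.68 and 20.04 ± 0.282 (SD, n = 3). Tgfb2 measured 9.20, 13.4 and 12.9 CPM against 12.5, 15.4 and 18.2 CPM, groups that overlap, and did not pass (0.38, edgeR adjusted p = 0.090). With the replicate number as a block, Tgfb2 passed (0.38, edgeR adjusted p = 0.0022), and it passed without adipocyte replicate 1 too (0.52, edgeR adjusted p = 0.015). In both groups library 1 held the lowest Tgfb2 value.

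Latent TGF-beta binding proteins tether the stored ligand to the matrix. Of these, 3 fell (75%, against 37.9% of all tested genes) and Ltbp3 did not. Ltbp1 (ENSMUSG00000001870.16, chromosome 17, 75005568 to 75392512, plus strand), a main partner of latent TGF-beta, measured 389, 385 and 387 CPM in preadipocytes and 51.4, 50.9 and 44.3 CPM in adipocytes (log2 fold change -2.99, SE 0.086, edgeR adjusted p = 8.78e-09). Ltbp2, which associates with elastic fibres, measured 437, 427 and 432 CPM against 98.7, 81.3 and 83.2 CPM (log2 fold change -2.30). Ltbp4 fell the most of the 4, from 41.8, 36.0 and 39.8 CPM to 2.81, 2.43 and 1.64 CPM (log2 fold change -4.09, SE 0.17). None of the 3 overlapped between groups, which was so for 76.5% of all tested genes. Ltbp3 (ENSMUSG00000024940.10, chromosome 19, 5740904 to 5758532, plus strand) measured 383, 329 and 344 CPM against 519.8, 453 and 495 CPM, a log2 fold change of 0.48 (SE 0.089, edgeR adjusted p = 0.0012). The rise of Ltbp3 was lost with total counts (0.15, edgeR adjusted p = 0.13) and turned to -0.047 with limma on log2(TPM + 1).

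Among the BMP and GDF ligands, the 9 listed genes were low or absent apart from Gdf5 and Gdf11. Gdf5 (ENSMUSG00000038259.4, chromosome 2, 155941023 to 155945367, minus strand), a BMP-type ligand known from joint and cartilage formation, had 0 counts in all 3 preadipocyte libraries and 24.5, 21.1 and 22.4 CPM in adipocytes. A group total of 0 allows up to 3 counts, or 0.0383 CPM, so Gdf5 was at least 592-fold higher in adipocytes (edgeR adjusted p = 9.15e-08). The antisense gene Gm15557 covers 40.3% of the exonic bases of Gdf5, and it reached no more than 0.35 CPM itself. Gdf11, a ligand close to myostatin, went the other way, from 17.5, 18.4 and 17.9 CPM to 1.38, 1.54 and 1.60 CPM (log2 fold change -3.57, SE 0.12, edgeR adjusted p = 2.22e-08). Gdf15, a stress-induced hormone of the family, rose by 3.06 on the log2 scale from 0.243 ± 0.062 to 2.05 ± 0.489 CPM (SD, n = 3). Gdf10, also called Bmp3b, fell by 1.49 from 3.998 ± 0.414 to 1.42 ± 0.144 CPM (SD, n = 3). Bmp4, which commits mesenchymal progenitors to the fat lineage, had 45 counts in preadipocytes and 0 in adipocytes and was at least 13.01-fold lower (edgeR adjusted p = 0.00024). Bmp2 and Bmp7 had no count in any library, Bmp6 had 2 counts in preadipocytes and 1 in adipocytes, and Gdf6 had 0 and 1. By TPM, the most abundant TGF-beta, BMP and GDF ligands in preadipocytes were Tgfb3 (43.3 ± 0.685), Tgfb1 and Gdf11 (8.45 ± 0.523), and in adipocytes Tgfb1, Gdf5 (13.4 ± 0.825) and Tgfb2 (5.19 ± 1.10, SD, n = 3 for each).

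Activins are dimers of inhibin beta subunits. Inhba (ENSMUSG00000041324.14, chromosome 13, 16011851 to 16031621, plus strand), the subunit of activin A, measured 12.6, 18.1 and 17.6 CPM in preadipocytes and 0.259, 0.280 and 0.606 CPM in adipocytes. The groups were far apart, with a log2 fold change of -5.37 (SE 0.28, edgeR adjusted p = 2.87e-07). Inhbb, the subunit of activin B, measured 6.97, 6.00 and 7.01 CPM against 9.17, 8.32 and 9.17 CPM. Its log2 fold change of 0.42 (edgeR adjusted p = 0.011) was lost with upper-quartile factors (0.28) and total counts (0.089), and it turned to -0.079 with limma on log2(TPM + 1).

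Secreted antagonists and binders, a group that here also holds the protease gene Bmp1, changed in both directions. Of the 7 tested, 4 were lower (57.1%, against 37.9% of all tested genes) and 3 higher (42.9%, against 35.7%). Grem1 (ENSMUSG00000074934.3, chromosome 2, 113746164 to 113758646, minus strand), which binds BMP2 and BMP4 and keeps them from their receptors, measured 373, 444 and 422 CPM in preadipocytes and 0.519, 1.03 and 0.995 CPM in adipocytes. This was the largest fall among the 47 tested genes (log2 fold change -8.93, SE 0.19, edgeR adjusted p = 2.57e-09). Fst (ENSMUSG00000021765.9, chromosome 13, 114452290 to 114458951, minus strand), which encodes the activin-binding protein follistatin, measured 188, 210.4 and 203 CPM against 5.71, 6.68 and 5.23 CPM (log2 fold change -5.09, SE 0.11, edgeR adjusted p = 2.74e-09). Fstl1 (ENSMUSG00000022816.11, chromosome 16, 37776873 to 37836514, plus strand), a secreted follistatin-like glycoprotein, was the most abundant of all 53 genes in preadipocytes by TPM (1085 ± 59.1, SD, n = 3). It fell from 2035, 2116 and 2087 CPM to 139, 156 and 132 CPM (log2 fold change -3.87). Bmp1, a protease that cleaves chordin and procollagens rather than a BMP ligand, fell from 253, 201.5 and 200.1 CPM to 33.2, 30.3 and 26.7 CPM (log2 fold change -2.86). In all 4 of these genes the lowest preadipocyte library was several times the highest adipocyte library.

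Other BMP antagonists were higher in adipocytes. Nog (ENSMUSG00000048616.4, chromosome 11, 89300638 to 89302332, minus strand), which encodes noggin, had 0 counts in preadipocytes and 1.90, 3.18 and 2.34 CPM in adipocytes, at least 64.6-fold higher (edgeR adjusted p = 2.04e-05). Chrd, which encodes chordin, rose from 5.28, 3.95 and 4.72 CPM to 12.97, 12.5 and 12.94 CPM (log2 fold change 1.46, SE 0.13, edgeR adjusted p = 9.54e-06). The rise of Chrdl1, a chordin-like protein, was smaller, from 72.7, 91.1 and 89.1 CPM to 111, 141 and 149 CPM (log2 fold change 0.66), and it was not past the threshold with limma on log2(TPM + 1) (0.13). The TPM of Grem1 in preadipocytes was 190.7 ± 23.5, and in adipocytes that of Chrdl1 was 56.7 ± 8.46, of Chrd 5.68 ± 0.487 and of Nog 2.07 ± 0.564 (SD, n = 3 for each). Fstl3, a relative of follistatin, had 7 and 4 counts and was not tested.

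**Figure D2:**
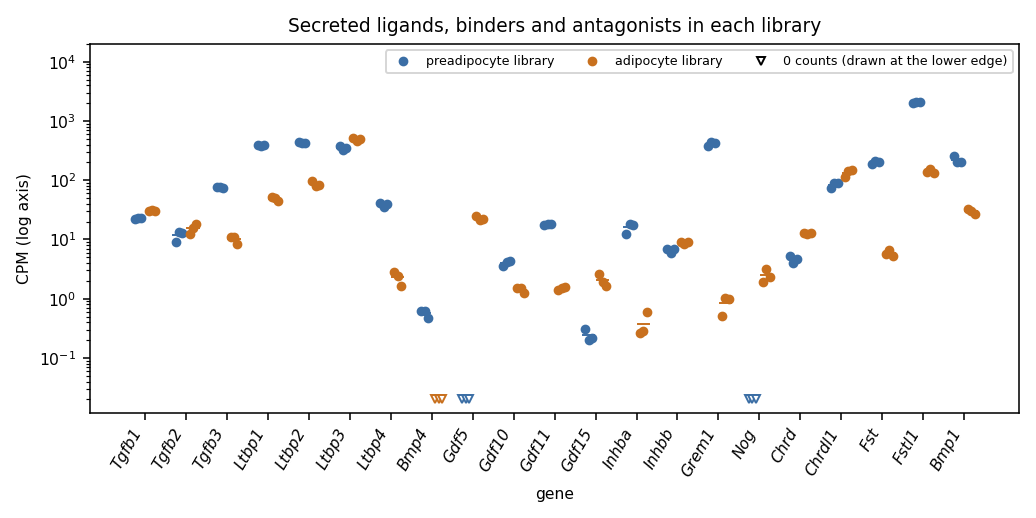
CPM on a log axis of 21 secreted members in each of the 3 preadipocyte (blue) and 3 adipocyte (orange) libraries, with short lines at the group means and open triangles for libraries with 0 counts. Grem1, Fst, Inhba and Ltbp4 drop furthest among the genes seen in both groups, while Gdf5 and Nog appear only in adipocyte libraries.

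The 250 bases before the start of Grem1 and Chrd are shown because these antagonists moved in opposite directions and each window holds the letters GGCGCC, a core known to bind BMP Smads in GC-rich promoters. The sequences are from RefSeq on GRCm38.p6, 5′ to 3′ on the gene's strand, with GGCGCC in capitals. It starts 78 bases before the start of Grem1 (chr2:113758649-113758898, minus strand) and 203 before that of Chrd (chr16:20732877-20733126, plus strand).
Grem1: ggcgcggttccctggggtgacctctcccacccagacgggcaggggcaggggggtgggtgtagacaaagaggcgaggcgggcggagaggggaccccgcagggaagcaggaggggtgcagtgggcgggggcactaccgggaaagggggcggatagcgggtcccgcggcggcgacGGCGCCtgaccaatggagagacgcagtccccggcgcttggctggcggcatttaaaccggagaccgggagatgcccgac
Chrd: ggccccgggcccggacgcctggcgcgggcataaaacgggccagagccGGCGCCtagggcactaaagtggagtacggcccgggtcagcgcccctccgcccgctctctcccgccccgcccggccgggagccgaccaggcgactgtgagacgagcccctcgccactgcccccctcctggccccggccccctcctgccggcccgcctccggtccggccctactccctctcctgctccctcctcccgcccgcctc

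RefSeq windows were matched for 37 of the 53 genes. GGCGCC, which reads the same on both strands, was in a window of 11 of the 37 genes (29.7%). Of all 32851 windows of the same length, 9.59% held it. A gene counted once if any of its windows matched, whereas the background counts windows, so the shares differ in unit. No account was taken of base composition. These 11 were Grem1, Id2, Id4, Ltbp4, Smad5 and Smad9, which fell, Chrd and Smurf2, which rose, and Bmpr1a, Bmpr2 and Tgfbr1, which did not pass. The palindromic Smad-binding element GTCTAGAC was in no window of the 37 genes and in 0.167% of all windows. Matches describe letters only, and a RefSeq start can differ from the GENCODE start, as that of Id2 does.

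Of the 4 type I receptors tested, 1 fell (25%, against 37.9% of all tested genes), 1 rose (25%, against 35.7%) and 2 did not pass. Acvr1 (ENSMUSG00000026836.15, chromosome 2, 58388644 to 58567157, minus strand), which signals for BMPs, measured 64.9, 62.9 and 62.2 CPM in preadipocytes and 16.0, 16.1 and 16.7 CPM in adipocytes (log2 fold change -1.96, SE 0.074, edgeR adjusted p = 3.71e-08). The values within each group lay close together and the groups were well separated. Acvr1b, the type I receptor of activin, rose from 25.1 ± 1.23 to 46.4 ± 3.14 CPM (SD, n = 3), a log2 fold change of 0.88 (SE 0.084, edgeR adjusted p = 1.47e-05). Tgfbr1, the type I receptor of TGF-beta, measured 62.6, 81.9 and 80.6 CPM against 63.1, 77.1 and 92.6 CPM and did not pass (0.049, SE 0.15). Bmpr1a, a type I BMP receptor, measured 108, 139 and 131 CPM against 94.8, 121 and 139 CPM and did not pass either (-0.095, SE 0.15). Both were called lower with limma on log2(TPM + 1) (-0.47 for Tgfbr1 and -0.43 for Bmpr1a), and Bmpr1a also with total counts (-0.42). Bmpr1b, the other type I BMP receptor listed, had no count in any library.

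Of the type II receptors, Acvr2b and Acvr2a, which bind activins and several BMPs and GDFs, moved in opposite directions. Acvr2b rose from 2.02 ± 0.114 to 7.203 ± 0.477 CPM (log2 fold change 1.83, SE 0.14, edgeR adjusted p = 2.77e-06) and Acvr2a fell from 84.6 ± 9.89 to 46.8 ± 6.11 CPM (log2 fold change -0.85, SE 0.12, edgeR adjusted p = 0.00020; SD, n = 3 for each). Acvr2a remained the more abundant of the pair in adipocytes, at 11.9 ± 1.77 against 4.03 ± 0.183 TPM (SD, n = 3). Orc4 lies opposite 7.8% of the exonic bases of Acvr2a, at up to 45.3 CPM, and their reads cannot be told apart without strand. Tgfbr2, the type II receptor of TGF-beta, fell from 108, 110.3 and 109 CPM to 94.4, 89.9 and 86.7 CPM (log2 fold change -0.28, edgeR adjusted p = 0.0053). Its call was lost without adipocyte replicate 2 (-0.23, edgeR adjusted p = 0.083), without adipocyte replicate 3 (-0.19, edgeR adjusted p = 0.066) and without the low-count filter. Bmpr2 (ENSMUSG00000067336.6, chromosome 1, 59763400 to 59879014, plus strand), the type II BMP receptor, measured 91.3, 142 and 136 CPM against 68.6, 98.3 and 114 CPM. Preadipocyte library 1 lay below adipocyte libraries 2 and 3, each library numbered 1 was the lowest of its group, and Bmpr2 did not pass (-0.40, SE 0.21, edgeR adjusted p = 0.12). Within each replicate number the adipocyte value was the lower, and with the replicate number as a block Bmpr2 passed (-0.40, edgeR adjusted p = 2.8e-05), as it did without preadipocyte replicate 1 (-0.57, edgeR adjusted p = 0.022).

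The co-receptor genes Tgfbr3 and Eng and the pseudoreceptor gene Bambi all fell. Among the further receptors and co-receptors given below, Rgma and Mcam rose. Tgfbr3 (ENSMUSG00000029287.14, chromosome 5, 107106570 to 107289629, minus strand), the betaglycan that presents TGF-beta2 and inhibin, fell from 513, 589.9 and 576 CPM to 218, 235 and 221 CPM (log2 fold change -1.32, SE 0.083, edgeR adjusted p = 9.18e-07). It still had the highest adipocyte TPM of the receptors and co-receptors described up to here, 49.3 ± 1.45 (SD, n = 3). Of the further receptors and co-receptors given below, Mcam was above it, at 91.6 ± 6.79 TPM in adipocytes (SD, n = 3). Eng, which encodes endoglin, fell by 3.21 on the log2 scale from a low level of 2.65 ± 0.455 CPM, and the pseudoreceptor gene Bambi fell by 1.27 from 2.61 ± 0.149 CPM (SD, n = 3 for each).

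Smad genes of both branches were lower, with Smad2 as the exception. Smad3 (ENSMUSG00000032402.12, chromosome 9, 63646767 to 63757994, minus strand) measured 98.9, 96.3 and 99.2 CPM in preadipocytes and 28.6, 28.2 and 26.9 CPM in adipocytes (log2 fold change -1.82, SE 0.071, edgeR adjusted p = 4.53e-08). Smad2 measured 36.7, 36.2 and 34.2 CPM against 52.96, 54.05 and 57.9 CPM (log2 fold change 0.62, SE 0.076, edgeR adjusted p = 7.46e-05), a rise not past the threshold with limma on log2(TPM + 1) (0.12). Summed over both, the TPM fell from 68.9 ± 2.83 to 40.4 ± 0.660 (SD, n = 3). In the BMP branch, Smad1 measured 21.4, 22.0 and 22.0 CPM against 7.52, 8.08 and 8.31 CPM (log2 fold change -1.45, SE 0.092). Smad9 fell by 2.79 on the log2 scale from 3.62 ± 0.814 CPM (SD, n = 3). Smad5 measured 80.7, 99.5 and 94.6 CPM against 66.3, 75.0 and 78.2 CPM, and its small fall (-0.32, edgeR adjusted p = 0.018) was lost without adipocyte replicate 1 or 2 (edgeR adjusted p = 0.0504 and 0.0623) and without preadipocyte replicate 2 or 3 (edgeR adjusted p = 0.075 and 0.067). Summed over Smad1, Smad5 and Smad9, the TPM went from 42.7 ± 4.53 to 18.6 ± 1.68 (SD, n = 3). Smad4, the shared partner, fell by 0.58 (SE 0.075, edgeR adjusted p = 0.00011) from 67.6 ± 3.44 to 45.3 ± 1.44 CPM (SD, n = 3).

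**Figure D3:**
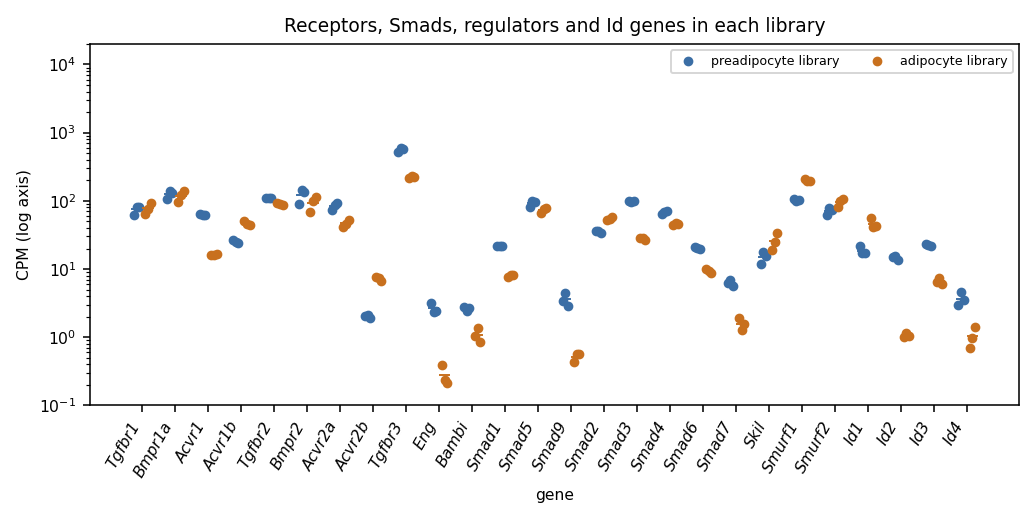
CPM on a log axis of 26 receptor, Smad, regulator and Id genes in each preadipocyte (blue) and adipocyte (orange) library, with short lines at the group means. Most pairs lie within a few-fold of each other; Id2, Eng and Smad9 show the widest drops and Acvr2b and Id1 the clearest rises, while Tgfbr1, Bmpr1a and Bmpr2 overlap.

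Of 5 negative regulators inside the cell, 2 fell (40%, against 37.9% of all tested genes) and 3 were higher (60%, against 35.7%). The inhibitory Smads, which are induced by the pathway and block it in turn, both fell. Smad6, which acts mainly on BMP signals, went from 20.7, 20.1 and 19.7 CPM to 10.1, 9.25 and 8.83 CPM (log2 fold change -1.10, SE 0.096), and Smad7, which acts on TGF-beta and BMP signals, fell by 1.97 (SE 0.18) from 6.22 ± 0.660 CPM (SD, n = 3). The ubiquitin ligase gene Smurf1, which targets BMP Smads and receptors, rose from 103 ± 3.73 to 199.8 ± 9.77 CPM (log2 fold change 0.96, SE 0.074, edgeR adjusted p = 3.31e-06; SD, n = 3). Its relative Smurf2 (0.42) lost its call with upper-quartile factors (0.28) and total counts (0.090) and turned to -0.088 with limma on log2(TPM + 1). Skil, which encodes the Smad corepressor SnoN, measured 11.9, 17.6 and 15.6 CPM against 19.0, 24.6 and 33.3 CPM (log2 fold change 0.77, edgeR adjusted p = 0.0097). That call was lost with total counts (0.44) and limma on log2(TPM + 1) (0.32).

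Id genes encode helix-loop-helix proteins without a DNA-binding domain and are classic BMP targets. They did not move as one. Id1 (ENSMUSG00000042745.9, chromosome 2, 152736251 to 152737410, plus strand) rose from 21.4, 17.1 and 17.4 CPM to 55.6, 40.8 and 42.1 CPM (log2 fold change 1.31, SE 0.14, edgeR adjusted p = 3.72e-05). Id2 (ENSMUSG00000020644.9, chromosome 12, 25093799 to 25097140, minus strand) fell from 15.03, 15.5 and 13.58 CPM to 0.994, 1.17 and 1.04 CPM (log2 fold change -3.78, SE 0.14, edgeR adjusted p = 3.45e-08). Id3 fell from 23.4, 22.6 and 21.4 CPM to 6.36, 7.43 and 5.97 CPM (log2 fold change -1.77, SE 0.11). Id4, the least abundant, fell by 1.82 (SE 0.28) from 3.67 ± 0.800 CPM (SD, n = 3). Groups overlapped for none of the 4, and they did not overlap for 76.5% of all tested genes. In preadipocytes the TPM of Id1 (43.9 ± 3.71) and Id3 (38.0 ± 0.996) lay near each other, and in adipocytes Id1 reached 76.3 ± 11.7 while Id3 was at 7.80 ± 0.998 (SD, n = 3 for each).

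Shares within a family are not affected by library scaling, but they do depend on the length correction of TPM. As a share of the summed TPM of its relatives, Tgfb3 went from 61.8% ± 2.09 to 13.8% ± 1.69 of the 3 TGF-beta genes, and Ltbp3 from 31.7% ± 1.05 to 76.8% ± 0.338 of the 4 binding proteins (SD, n = 3). Inhbb went from 33.5% ± 0.477 to 95.7% ± 1.08 of the activin subunits, Smad2 from 43.3% ± 1.59 to 80.2% ± 2.90 of Smad2 and Smad3, and Id1 from 40.5% ± 2.71 to 88.9% ± 2.32 of the Id genes (SD, n = 3). Smad5 went from 62.3% ± 2.78 to 79.7% ± 1.52 of the BMP Smads. Among 4 type I receptors, Acvr1 went from 35.0% ± 2.40 to 10.7% ± 0.800 and Acvr1b from 8.42% ± 0.762 to 18.7% ± 2.92 (SD, n = 3). In these 8 shares the groups did not overlap. For the ninth, Tgfbr2 among 4 type II receptors, they did (45.4% ± 3.18 and 49.8% ± 4.86), although the share was higher in adipocytes within each replicate number. Computed from CPM, without the length correction, all 9 kept their direction, and the change of Acvr1 went from -24.3 to -15.6 percentage points and that of Smad5 from 17.4 to 11.4. An exact two-sided permutation test, not paired by number, gave p = 0.1 for each of the 8 and 0.2 for Tgfbr2, or 0.1125 and 0.2 after Benjamini-Hochberg adjustment over the 9; with 3 libraries against 3, 0.1 is the smallest p it allows.

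**Figure D4:**
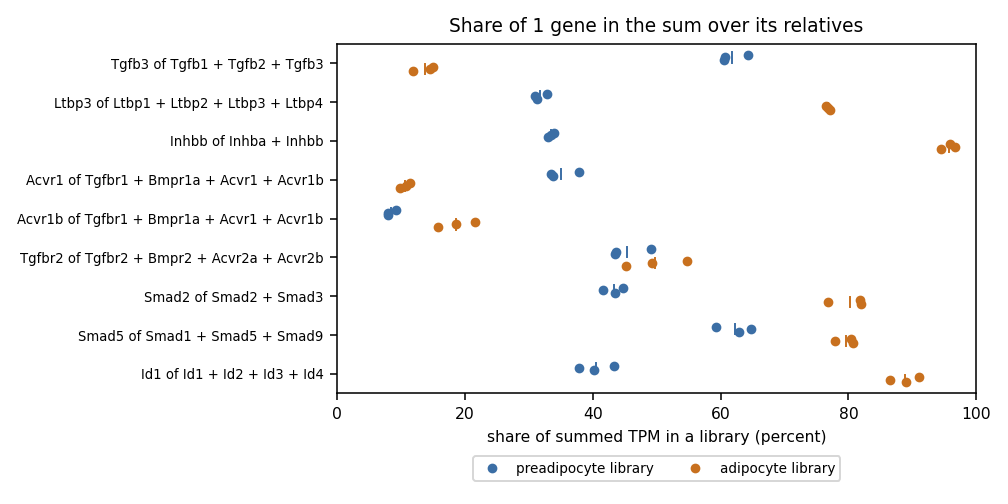
Share of 1 gene in the summed TPM of its relatives (x axis, percent) in each preadipocyte (blue) and adipocyte (orange) library, with ticks at the group means. Inhbb, Id1, Ltbp3 and Smad2 make up most of their family in adipocytes and less than that in preadipocytes, Tgfb3 and Acvr1 shrink, and Tgfbr2 overlaps.

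The deposited gene length, which is averaged over a gene's transcripts by their estimated abundance, gives a hint of transcript usage. Of the 35 tested members with several transcripts, 5 were shorter in adipocytes without overlap (against 14.2% of 11744 such genes) and 1 was longer (against 12.1%). The count of shorter members is close to the share of all genes, and that of longer members is below it. Among these 6 the widest differences were in Ltbp1, at 5518, 5505 and 5444 bases in preadipocytes and 4289, 4593 and 4222 bases in adipocytes, and in Ltbp2, at 6500 ± 176 and 5299 ± 278 bases (SD, n = 3). Fstl1 followed, at 3685 ± 8.34 and 3185 ± 72.7 bases (SD, n = 3). Tgfbr2, Smurf1 and Id2 differed by less than 5%. The mean of Inhba differed more, at 5181 ± 1203 and 3986 ± 1069 bases (SD, n = 3), but its groups overlapped. Which transcripts account for this cannot be read from gene tables.

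Other genes of the pathway came from lists of textbook members. Of 19 further ligands only Inha, the inhibin alpha subunit, was tested, and it did not pass (-0.18). Of 13 further receptors and co-receptors, 7 were tested, with 5 lower (71.4%, against 37.9% of all tested genes) and 2 higher (28.6%, against 35.7%). The lower ones were led by Vasn, which binds TGF-beta, from 227 ± 19.9 to 32.6 ± 6.48 CPM, and the BMP co-receptor gene Rgmb, from 136 ± 1.86 to 28.5 ± 2.87 CPM, while Rgma rose by 0.78 from 72.0 ± 8.12 CPM (SD, n = 3 for each). The other rise was of Mcam, also a pericyte marker, which went from 0.332 ± 0.019 to 192 ± 20.4 CPM (SD, n = 3). Of 26 further extracellular modulators, 18 were tested and 16 were lower (88.9%, against 37.9%), among them the BMP antagonist gene Nbl1 (log2 fold change -4.29, SE 0.18) and the fibrillin gene Fbn1 (-3.89, SE 0.079), whose product anchors latent complexes. Only Dand5 was higher, from 3.71 ± 0.498 to 6.16 ± 0.932 CPM (SD, n = 3), and Bmper did not pass (0.17). Many of these encode matrix proteins, and they moved beside the fall of the fibroblast markers given above. In these lists, Mcam, Lrrc32, Tll1 and Itgb8 reached the filter level of 0.414 CPM only in the group where they were high. Their difference was therefore bound to be large.

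All 29 further intracellular regulators were tested, with 12 higher (41.4%, against 35.7% of all tested genes) and 10 lower (34.5%, against 37.9%), shares near those of all genes. The largest rises were of Tob1, an antiproliferative protein that interacts with Smads, from 15.9 ± 1.76 to 191 ± 17.9 CPM (SD, n = 3), and of the ubiquitin ligase gene Rnf11 (log2 fold change 2.42, SE 0.094), and the largest falls of the corepressor gene Tgif2 (-2.74, SE 0.22) and of Pmepa1, a TGF-beta-induced inhibitor (-2.18, SE 0.18). Other settings gave 14 higher and 8 lower (RLE factors and DESeq2), 15 and 8 (no low-count filter), 7 and 13 (total counts) and 7 and 15 (limma on log2(TPM + 1), where unit and test differ too). Of 23 TGF-beta target genes, 18 were lower (78.3%, against 37.9%) and 4 higher (17.4%, against 35.7%). Hmga2 (-5.70, SE 0.15) and the smooth muscle actin gene Acta2 (-5.08, SE 0.18) fell the most among those of at least 10 CPM, and Tgm2 (4.54, SE 0.15) and Vegfa (3.42, SE 0.096) rose the most. The collagen genes Col1a1, Col1a2 and Col3a1 on this list also count among the fibroblast markers. Of 15 further BMP target genes, 9 were tested, with 6 lower (66.7%, against 37.9%) and 3 higher (33.3%, against 35.7%). Gata2 (-5.88, SE 0.22) and Atoh8 (-4.87, SE 0.20) fell and Hes1 rose (0.99, SE 0.11), and Sp7 and Alpl rose to no more than 1.27 CPM on average. Gata2, Sp7 and Alpl, and Ccn2 and Pdgfb of the TGF-beta targets, reached the filter level of 0.414 CPM only in the group where they were high. Their difference was therefore bound to be large. The median log2 fold change was -2.44 over the TGF-beta targets and -2.02 over the tested BMP targets, beside -0.060 over all tested genes.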

How the data were processed

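Gene tables of 6 libraries were used, 1 per library. Per the file headers, the authors deposited for each gene an expected count, a TPM value scaled within the library, and 2 other values, a gene length and an effective length in bases. The submitters' processing notes name the tools RSEM, Bowtie, Bowtie2 and DESeq2, and the builds GRCm38 and mm10, without roles; no source used here gives their versions. Expected counts share out reads that match several genes, and strandedness is not stated, so reads of near-identical copies and of overlapping genes are uncertain. At most 6.66% of the 31-mers of any of the 53 genes occurred in transcripts of other genes (Fstl1).

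Expected counts were rounded and tested with edgeR 4.0.16 (R 4.3.3) after filterByExpr and TMM, with the group as the only term, a quasi-likelihood F-test and Benjamini-Hochberg adjustment at 0.05 over 14726 genes. Standard errors were taken from the fold change and its F statistic. A group with 0 counts was given a floor of 3 counts over its 3 libraries (0.0383 CPM in preadipocytes, 0.0443 CPM in adipocytes); floors cover counting error only. The fit was tested on simulated counts. Alternatives were RLE, upper-quartile and total-count scaling, no filter, DESeq2 1.42.0, limma 3.58.1 on log2(TPM + 1), an effective length offset, the replicate block and leaving out each library; leaving out both libraries numbered 1, and shares computed from CPM, were added after seeing the data.

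For libraries sharing a number, the deviations from their group means had correlations over genes of 0.659, 0.301 and 0.265, all above 0.1. Differently numbered libraries gave -0.567 to 0.446. The rule of 0.1 was met, but preadipocyte library 2 and adipocyte library 3 gave 0.446, above the same-numbered 0.301 and 0.265. The numbers were therefore not shown to pair libraries 2 and 3, and the main fit ignored them. Treating them as pairs changed the calls of Tgfb2 and Bmpr2, and both results are given for these genes. The closest replicates differed beyond sampling noise (chi-square divided by degrees of freedom 2.85), so none was counted as a copy. Adipocyte library 2 held 0.731% ribosomal RNA counts against at most 0.0706% in the others. The genes and lists were chosen with earlier results of these data known, so they are no independent evidence. Per-library values are given for called changes of at least 2-fold whose higher group averaged 10 CPM or more, for those not past the threshold, and, chosen after their values were seen, for others whose call is uncertain. In each list of further pathway genes, the 2 largest called rises and falls of at least 10 CPM are named, and genes beside these were chosen after their values were seen. Some values for single genes outside the 53 are not reported here.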

Additional observations from a re-analysis of the deposited data

How the results depend on the processing

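Over 15 alternatives, the number of the 53 genes that were lower ran from 26 to 31 around 28, and the number higher from 8 to 16 around 15. With limma on log2(TPM + 1), 8 of them and 3266 of all genes were higher, against 15 and 5252 in the edgeR fit; unit and test both differ there, and the cause was not tested. In single genes, 662 of 705 fold changes kept their direction and side of the threshold, 17 fell short of it, 14 newly passed and 12 turned. With limma on log2(TPM + 1), 6 turned, of which only that of Tgfbr1 (-0.47) was past the threshold there; the others were Tgfb1 (-0.088), Tgfb2 (-0.044), Ltbp3 (-0.047), Inhbb (-0.079) and Smurf2 (-0.088). The other 6 were not past the threshold in either fit: Tgfbr1 with total counts (-0.28), with upper-quartile factors (-0.085), without adipocyte replicate 3 (-0.043) and without preadipocyte replicate 1 (-0.066), and Bmpr1a with the effective length offset (0.069) and without adipocyte replicate 1 (0.054). Leaving out 1 library gave -0.066 to 0.19 for Tgfbr1 and -0.20 to 0.054 for Bmpr1a. With the replicate number as a block, 16 of the 53 genes were higher and 29 lower, with Tgfb2 (0.38) and Bmpr2 (-0.40) newly past the threshold and no other call of a tested member changed. Leaving out 1 library gave 15 to 16 higher and 26 to 29 lower of the 53. The effective length offset changed no call of a tested member. Bmp2, Bmp6, Bmp7, Gdf6, Bmpr1b and Fstl3 had at most 7 counts in a group and did not pass the low-count filter of the edgeR fit.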
